A study of Drosophila melanogaster with 6 samples.

Results

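The genes described here are 7 heat shock protein genes of Drosophila melanogaster, Hsp22, Hsp23, Hsp26, Hsp27, Hsp67Bc, Hsp68 and Hsp83. They were taken by symbol from a list whose rule uses no measured value, although the list was drawn up with earlier results of these data known, and are 7 of the 17471 genes counted. RNA-seq was carried out on wing discs, the larval epithelia that give rise to the adult wings, from female larvae at the wandering stage. The histone demethylase gene dLsd1 was missing in one genotype, and 3 dLsd1 mutant libraries were set against 3 wild-type libraries to find the genes whose RNA differs without it. The mutant larvae were homozygous for dLsd1∆N, a null deletion made by recombination between transposon insertions, and came from a stock kept over a balancer chromosome. The wild-type larvae were of the w1118 stock, so that the genotype and the stock background cannot be told apart. Both were raised at 25 °C with no heat shock or other treatment listed, no age beyond the stage is given, and each library was made from 30 pooled discs. The labels do not say that the samples of a genotype came from separate cultures, so the p-values measure the spread between these samples, which may be partly technical.

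Heat shock proteins are chaperones that bind unfolded proteins and are induced by the heat shock factor Hsf when proteins misfold. The small heat shock proteins hold unfolding proteins in a soluble state without using ATP, whereas the Hsp70 and Hsp90 families refold and mature their clients in cycles that consume ATP. In Drosophila several small heat shock genes are also switched on without stress in late larvae, by the steroid hormone ecdysone.

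Library totals ranged between 35466251 and 42452820 counts in the dLsd1 mutant and between 13960866 and 45909324 counts in wild-type. The dLsd1 gene itself, annotated as Su(var)3-3, had 7, 6 and 1 counts in the mutant libraries, against 2136, 676 and 2564 counts in the wild-type libraries, which fits the labels. Wild-type replicate 3 stood apart, since 6.73% of 8070 well-counted genes differed more than 2-fold there from the other wild-type libraries, whereas in each of the other 5 libraries that share was between 0.173% and 1.52%. The wing disc markers vg, nub, ap and sd, which encode regulators of wing identity and growth, were counted in every library. Among the marker lists of other tissues, summed CPM (counts scaled to library size with TMM normalization) overlapped between the genotypes for fat body, with 120.0 to 561.1 in the mutant and 62.6 to 862.0 in wild-type. They overlapped likewise for muscle (733.6 to 811.1 in the mutant, 463.2 to 796.4 in wild-type), haemocytes (21.3 to 37.0 in the mutant, 20.8 to 24.0 in wild-type) and salivary gland (2.39 to 11.9 in the mutant, 0.575 to 23.6 in wild-type). They did not overlap for trachea (533.8 to 653.0 in the mutant, 730.7 to 791.4 in wild-type) and gut (17.1 to 21.5 in the mutant, 42.4 to 67.8 in wild-type). The tracheal sum was carried by verm (log2 fold change -0.30) and serp (-0.59). The third tracheal marker, trh, had a positive log2 fold change of 0.15. It had 80.7, 85.5 and 85.6 CPM in the mutant, against 60.8, 68.7 and 97.9 CPM in wild-type, and its genotypes overlapped. The gut sum was carried by LManII, with 15.5 to 19.8 CPM in the mutant and 41.9 to 66.6 CPM in wild-type, whereas the other 4 gut markers tested had positive log2 fold changes and the median of the list was 2.85. The muscle sum was carried by Tm1, and all 7 muscle markers tested had positive log2 fold changes, with a median of 0.70. For haemocytes the sums were 21.3, 37.0 and 36.5 CPM in the mutant, so the overlap rested on mutant replicate 1. Of the 6 haemocyte markers 5 had positive log2 fold changes, with a median of 0.41, and DESeq2 called 2 higher and 1 lower. Of the markers tested, 1 of 7 for fat body, 1 of 7 for muscle, 1 of 6 for haemocytes, 1 of 5 for gut and 0 of 3 for trachea rose, against 4.32% of all genes tested, and 1 each for haemocytes and gut fell, against 2.23% of all genes. The gut marker betaTry was at 0 in every library, and the part of these tissues in the results below was not tested. In bulk discs fewer cells of a type cannot be told from less RNA per cell.

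Of the 7 heat shock genes, Hsp23 and Hsp26 fell in the dLsd1 mutant and no gene rose. Hsp23 was at 0.558 and Hsp26 at 0.628 of the wild-type level. The other 5 genes had fold changes of the same sign that did not pass the test, from -0.15 for Hsp68 to -0.82 for Hsp67Bc on the log2 scale. Genes were called where edgeR's quasi-likelihood test, with Benjamini-Hochberg adjustment over all features tested, gave an adjusted p under 0.1 and the log2 fold change was beyond 0.6 in either direction. By this rule 2 of the 7 fell (28.6%), against 2.23% of the 10841 genes tested, and 0 rose, against 4.32% of them. DESeq2 gave the same counts for the 7 genes. In edgeR 4 of the 7 genes, all lower in the mutant, had an unadjusted p under 0.05. So did 2005 of the 10841 genes tested, in either direction, so such values were common in these data. The mutant and wild-type libraries did not overlap, with the mutant lower, for 5 of the 7 genes (71.4%), as against 11.9% of all genes. The median log2 fold change of the 7 genes was -0.60, and that of all genes was -0.02. The 7 genes are not independent, since 5 of them lie next to each other and all are expressed in the same discs.

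**Figure D1:**
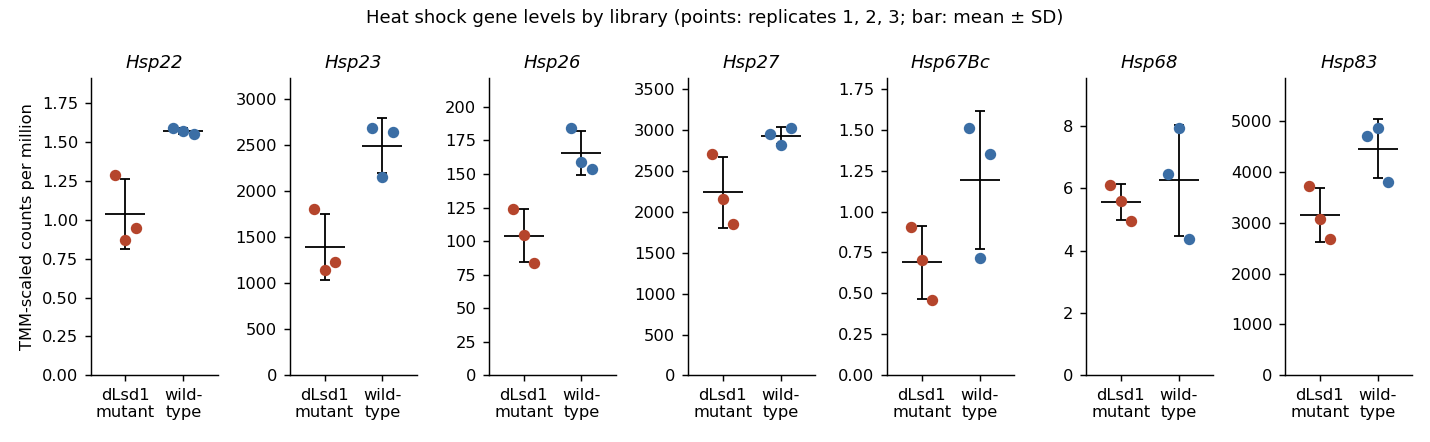
TMM-scaled CPM of each heat shock gene (y axis, from 0, a separate scale for each gene) in the 3 dLsd1 mutant libraries (red) and the 3 wild-type libraries (blue), with points for the replicates in number order and bars for mean ± SD. For Hsp22, Hsp23, Hsp26, Hsp27 and Hsp83 every mutant library is below every wild-type library, whereas for Hsp67Bc and Hsp68 the genotypes overlap.

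The largest effect past the test was that of Hsp23, which encodes a cytosolic small heat shock protein. Its gene is at 3L:9381882-9382765 on the plus strand (dm6 coordinates, BDGP6 annotation). Hsp23 had 1808.9, 1142.4 and 1231.0 CPM in the 3 mutant libraries, against 2690.5, 2155.2 and 2650.3 CPM in the 3 wild-type libraries. The genotypes did not overlap, and mutant replicate 1 stood above the other mutant libraries while wild-type replicate 2 was the lowest of its genotype. Hsp23 averaged 1394.1 ± 362.0 CPM in the mutant and 2498.7 ± 298.1 CPM in wild-type (SD, n = 3 each). Its log2 fold change was -0.84 (SE 0.20, 95% interval -1.29 to -0.39, adjusted p = 0.0462 by edgeR's quasi-likelihood test). Among all genes tested, 5.91% had a lower log2 fold change. Each value behind Hsp23 rested on at least 30126 counts, so that the spread between libraries and not the depth set its error. Whether duplicate reads had been removed before these counts were made is not given in the sources used here, and the part of that step in the level and fold change of Hsp23, a short and abundant transcript, was not tested. The call was lost when mutant replicate 2 (log2 fold change -0.74, adjusted p = 0.177, edgeR), mutant replicate 3 (-0.76, adjusted p = 0.178) or wild-type replicate 1 (-0.79, adjusted p = 0.191) was left out.

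Hsp26, another cytosolic small heat shock protein gene, is at 3L:9376418-9377427 on the minus strand. It had 123.7, 104.2 and 84.0 CPM in the mutant libraries, against 184.3, 159.0 and 153.5 CPM in the wild-type libraries. All 3 mutant values were below the lowest wild-type value, and the wild-type libraries lay closer together in relative terms than the mutant ones. The means were 103.9 ± 19.8 CPM in the mutant and 165.6 ± 16.4 CPM in wild-type (SD, n = 3 each). The log2 fold change was -0.67 (SE 0.16, 95% interval -1.04 to -0.31, adjusted p = 0.0483 by edgeR's quasi-likelihood test). Hsp26 was thus about as precisely measured as Hsp23, at a far lower level. Without mutant replicate 2, mutant replicate 3 or wild-type replicate 1 the call was lost here too, with log2 fold changes of -0.70, -0.54 and -0.59 and adjusted p-values of 0.166, 0.154 and 0.195 (edgeR).

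Hsp27 encodes a small heat shock protein that is found in the nucleus, and its gene is at 3L:9384063-9385694 on the plus strand. It had 2707.8, 2160.5 and 1849.7 CPM in the mutant libraries, against 2947.3, 2822.2 and 3025.7 CPM in the wild-type libraries. The genotypes did not overlap, but mutant replicate 1 came close to the lowest wild-type library. The mean was 2239.3 ± 434.5 CPM in the mutant and 2931.7 ± 102.6 CPM in wild-type (SD, n = 3 each), so the mutant libraries were the more variable. Its log2 fold change of -0.39 (SE 0.16, 95% interval -0.75 to -0.03) did not pass the test (adjusted p = 0.236, edgeR). The exons of Hsp27 share 49 bases, 3.0% of their length, with the pseudogene CR43483 on the other strand.

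Hsp22, the small heat shock protein of the mitochondrial matrix, was hardly expressed. Its gene (3L:9372931-9374964, plus strand) had 47, 37 and 35 counts in the mutant libraries, against 65, 22 and 70 counts in the wild-type libraries. Scaled to depth these were 1.29, 0.872 and 0.946 CPM in the mutant, against 1.59, 1.57 and 1.55 CPM in wild-type. The genotypes did not overlap, and the wild-type libraries were nearly level. Hsp22 had a log2 fold change of -0.60 (SE 0.29, 95% interval -1.26 to 0.06, adjusted p = 0.31, edgeR), so that a difference of either sign was within the interval. The exons of Hsp22 lie wholly within those of CG4456, also named Hsp67Bb, on the same strand. The counts of both genes differed by at most 3 in any library, and how reads on both were divided is not given in the sources used here, so Hsp22 and CG4456 cannot be told apart.

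Hsp67Bc encodes a small heat shock protein that works with the cochaperone Starvin in autophagy. The gene (3L:9371511-9372497, minus strand) had 33, 30 and 17 counts in the mutant libraries, against 62, 10 and 61 counts in the wild-type libraries. The CPM values were 0.905, 0.707 and 0.46 in the mutant, against 1.51, 0.715 and 1.35 in wild-type. Wild-type replicate 2, the shallowest library, fell among the mutant values, so the genotypes overlapped. The log2 fold change of -0.82 was as large as that of Hsp23, but its standard error was 0.41 and its 95% interval ran from -1.75 to 0.11 (adjusted p = 0.324, edgeR). The interval included no difference, and the libraries of each genotype varied widely. The stv gene, which encodes Starvin and was picked out after its values were seen, had 54.2, 53.6 and 45.8 CPM in the mutant, against 33.4, 41.6 and 38.8 CPM in wild-type. Its libraries did not overlap, with the mutant higher, and its log2 fold change of 0.44 (SE 0.13, adjusted p = 0.0982, edgeR) was under the fold threshold.

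Hsp83, the fly Hsp90, is a chaperone of kinases and steroid receptors that is abundant in unstressed cells. The gene (3L:3192969-3197059, plus strand) had 3713.6, 3073.4 and 2672.1 CPM in the mutant libraries, against 4702.6, 4857.9 and 3797.8 CPM in the wild-type libraries. The genotypes did not overlap, although wild-type replicate 3 was only a little above mutant replicate 1. Hsp83 averaged 3153.0 ± 525.3 CPM in the mutant and 4452.8 ± 572.5 CPM in wild-type (SD, n = 3 each). The log2 fold change was -0.50 (SE 0.17, 95% interval -0.88 to -0.11, adjusted p = 0.153, edgeR) and passed neither threshold. When wild-type replicate 3, the library that stood apart, was left out, Hsp83 had a log2 fold change of -0.60 and an adjusted p of 0.0233 in edgeR, and was called lower. Then 3 of the 7 genes fell, Hsp23 (-0.80, adjusted p = 0.0307), Hsp26 (-0.73, adjusted p = 0.016) and Hsp83, among 1588 genes called in all as against 710 with every library.

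Hsp68 is a stress-inducible member of the Hsp70 family and the only gene of the 7 on the right arm, at 3R:24055080-24057310 on the minus strand. It had 6.12, 5.61 and 4.97 CPM in the mutant libraries, against 6.45, 7.94 and 4.38 CPM in the wild-type libraries. All mutant values fell within the wild-type range, which was set by wild-type replicates 2 and 3. The log2 fold change was -0.15 (SE 0.23, 95% interval -0.68 to 0.38, adjusted p = 0.751, edgeR), and it was 0.04 without wild-type replicate 2 (adjusted p = 0.961). These data therefore allow either direction for Hsp68.

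**Figure D2:**
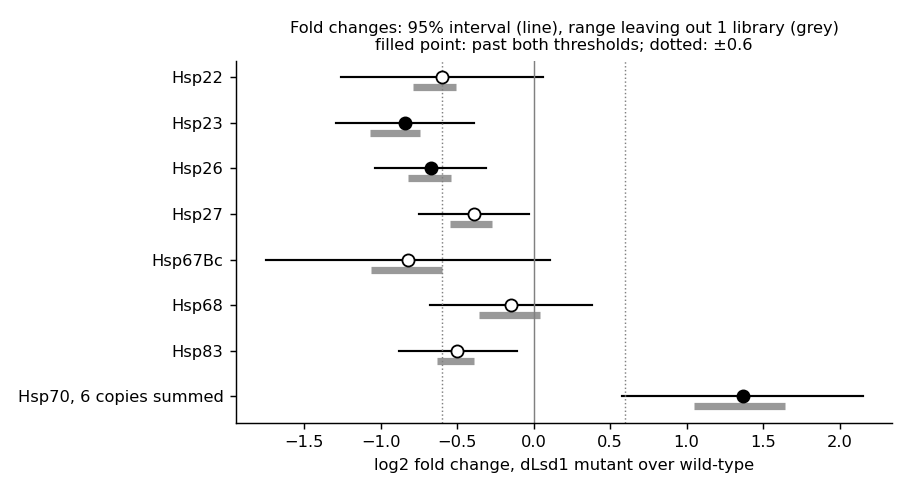
Log2 fold change of dLsd1 mutant over wild-type (x axis) for the 7 heat shock genes and the summed Hsp70 copies, with points for edgeR estimates (filled where past both thresholds), lines for 95% intervals and grey bars for the range when each library is left out in turn. Hsp23 (-0.84) and Hsp26 (-0.67) are filled on the lower side and the summed Hsp70 copies (1.37) on the higher side, and the grey bar of Hsp68 crosses 0.

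Per kilobase of exon, 3 of the genes were highly expressed. Hsp23 had 1577.0 ± 409.5 CPM per kb, Hsp27 1372.1 ± 266.2 CPM per kb and Hsp83 1065.2 ± 177.5 CPM per kb in the mutant (SD, n = 3). The differences between neighbours in this order were smaller than the sum of their SDs. In wild-type the order was the same, at 2826.5 ± 337.2 CPM per kb for Hsp23, 1796.4 ± 62.9 for Hsp27 and 1504.3 ± 193.4 for Hsp83, and there each step was larger than the summed SDs. In level per length these 3 genes stood at the 99.3 to 99.6 percentile of 10688 genes. Hsp26 followed with 102.9 ± 19.6 CPM per kb in the mutant and 164.0 ± 16.3 CPM per kb in wild-type. Hsp68 had 2.5 ± 0.256 CPM per kb in the mutant and 2.8 ± 0.802 CPM per kb in wild-type. Hsp67Bc (0.70 ± 0.226 in the mutant, 1.21 ± 0.427 in wild-type) and Hsp22 (0.545 ± 0.117 in the mutant, 0.826 ± 0.0108 in wild-type) were the lowest, and their levels did not differ from each other beyond the summed SDs. All 7 genes together took 0.839%, 0.652% and 0.619% of the gene counts of the mutant libraries, against 1.04%, 1.00% and 0.956% in the wild-type libraries. The genotypes did not overlap in this share, which rests almost wholly on Hsp83, Hsp27 and Hsp23.

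The mutant libraries deviated in common across the heat shock genes. Mutant replicate 1 was the highest mutant library for all 7 genes, and mutant replicate 3 was the lowest for 5 of them. On the log2 scale, mutant replicate 1 was above the mutant mean by 0.13 for Hsp68 to 0.41 for Hsp23. In wild-type no library led throughout, since replicate 1 was the highest for 4 genes and replicate 3 was the lowest for 4. A like order was seen in the summed fat body markers of the mutant, at 561.1, 361.2 and 120.0 CPM. The wild-type sums were 578.8, 862.0 and 62.6 CPM, highest in replicate 2 and lowest in replicate 3. Hsp83 (4702.6, 4857.9 and 3797.8 CPM) and Hsp68 (6.45, 7.94 and 4.38 CPM) had that order in wild-type. The other listed heat shock genes did not, among them Hsp23 (2690.5, 2155.2 and 2650.3 CPM). The summed level of 22 ecdysone response genes was 7151.0, 5736.6 and 5002.7 CPM in the mutant, against 6942.2, 5039.4 and 9479.7 CPM in wild-type, and overlapped between the genotypes. Most of each sum was ImpE2, with 4958.9, 3763.8 and 3084.7 CPM in the mutant and 5211.7, 3481.4 and 5731.6 CPM in wild-type. The part of fat body RNA or of the ecdysone response in the heat shock gene values was not tested.

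The 5 small heat shock genes lie in 14.2 kb of the 67B cluster (3L:9371511-9385694). The annotation places 9 genes there, of which 8 had enough counts to be tested. All 8 had a negative log2 fold change, as did 51.9% of all genes tested, and Hsp23 and Hsp26 were the only ones called. Hsp67Ba, a further small heat shock gene between Hsp26 and Hsp23, had 389.1, 298.8 and 295.3 CPM in the mutant libraries, against 570.4, 428.9 and 449.8 CPM in the wild-type libraries. The genotypes did not overlap for Hsp67Ba. Its log2 fold change was -0.56 (SE 0.16, 95% interval -0.93 to -0.19, adjusted p = 0.101, edgeR), just outside both thresholds. CG4456 had a log2 fold change of -0.63 (adjusted p = 0.285, edgeR), but shares its reads with Hsp22. The antisense RNA asRNA:CR43481 had -0.50 (adjusted p = 0.422, edgeR). It overlaps Hsp67Ba on the other strand, and the strand setting of the counting is not given in the sources used here. CG4461, annotated between Hsp22 and Hsp26, was at 0 in all 6 libraries. All 7 heat shock genes are on chromosome 3, which also carries dLsd1, with the 67B genes about 10.8 Mb from it. The share of genes called lower was 2.53% on 3L and 2.28% on 3R, and it lay between 1.94% (X) and 2.35% (2L) on the other chromosome arms.

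**Figure D3:**
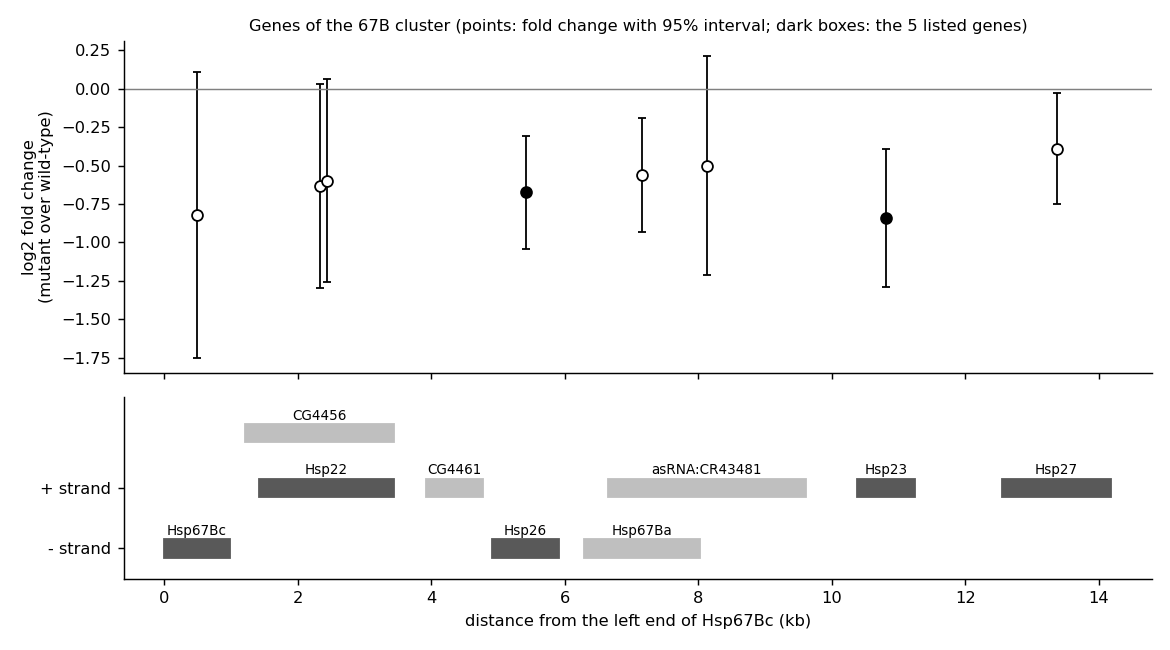
Genes of the 67B cluster along the chromosome (x axis, distance in kb from the left end of Hsp67Bc), as boxes by strand below (dark for the 5 listed genes) and with the log2 fold change of dLsd1 mutant over wild-type and its 95% interval above (filled points for genes past both thresholds). All 8 tested genes lie below 0, and Hsp23 and Hsp26 are filled.

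The inducible Hsp70 genes are the classical markers of heat shock. Of the 6 copies 4 had a positive log2 fold change, while Hsp70Ba (-0.13) and Hsp70Bbb (-0.16), with at most 7 counts in any library, had a negative one. The copies are nearly identical, and reads can be split between them in ways that are not stated, so their counts were also summed, a choice made after seeing the data. The sum was 212, 244 and 156 counts in the mutant libraries, against 92, 41 and 51 counts in the wild-type libraries. In CPM these were 5.81, 5.75 and 4.22 in the mutant, against 2.25, 2.93 and 1.13 in wild-type, and the genotypes did not overlap. The summed copies rose in the mutant, with a log2 fold change of 1.37 (SE 0.34, 95% interval 0.58 to 2.15, adjusted p = 0.0602, edgeR). The call was lost on leaving out mutant replicate 1 (1.28, adjusted p = 0.184), mutant replicate 2 (1.27, adjusted p = 0.234), mutant replicate 3 (1.5, adjusted p = 0.117) or wild-type replicate 1 (1.46, adjusted p = 0.195). Among single copies, Hsp70Ab rose, with 117, 67 and 78 counts in the mutant, against 38, 16 and 32 counts in wild-type (log2 fold change 1.34, SE 0.36, adjusted p = 0.0765, edgeR). The stress-induced noncoding RNA Hsromega, with 36.1, 30.8 and 58.0 CPM in the mutant and 36.1, 23 and 55.2 CPM in wild-type, had a log2 fold change of 0.12 (adjusted p = 0.893, edgeR).

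**Figure D4:**
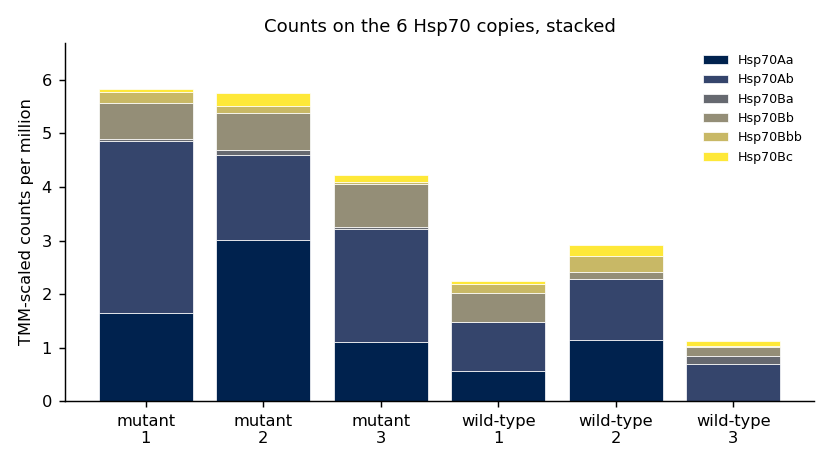
TMM-scaled CPM on the 6 inducible Hsp70 copies (y axis, from 0), stacked by copy, in each of the 3 dLsd1 mutant and 3 wild-type libraries. The mutant stacks reach 4.22 to 5.81 and the wild-type stacks 1.13 to 2.93, and Hsp70Aa and Hsp70Ab make up most of each stack, with Hsp70Aa at 0 in wild-type replicate 3.

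No gene of the remaining chaperone families passed the test in edgeR or DESeq2. Of 7 genes listed as other small heat shock genes 5 were tested and 0 were called, with 1 at an unadjusted p under 0.05. Their median log2 fold change was -0.56. The 5 include CG4456, which shares its reads with Hsp22, so this median is not independent of the 7 heat shock genes. Of the 5, 4 were negative and 1 was positive, l(2)efl (1.18, SE 0.74, adjusted p = 0.443, edgeR), whose genotypes overlapped. CG14207, a small heat shock gene on the X chromosome, had 94.4, 106.5 and 76.7 CPM in the mutant, against 98.2, 106.5 and 89.1 CPM in wild-type (log2 fold change -0.08, SE 0.14). Of 5 Hsp70 cognate genes tested 0 were called, with a median of -0.26 and 0 at an unadjusted p under 0.05. Hsc70-4, the main constitutive cytosolic Hsp70, had 6575.6, 5883.3 and 5055.8 CPM in the mutant, against 7375.6, 7701.2 and 5913.0 CPM in wild-type, and its genotypes overlapped (log2 fold change -0.26, SE 0.16, adjusted p = 0.422, edgeR). The endoplasmic reticulum chaperone Hsc70-3 (BiP) had the same log2 fold change of -0.26, with an adjusted p of 0.473. For 11 genes of the chaperonin and mitochondrial chaperone list, which includes the mitochondrial protease Lon, the median was -0.25. Of these 0 were called and 1 had an unadjusted p under 0.05. The log2 fold change was negative for 10, among them the cytosolic chaperonin subunits CCT1 (-0.29, adjusted p = 0.33, edgeR) and CCT5 (-0.32, adjusted p = 0.327, edgeR). Lon was the positive one (0.08). For Hsf and 17 cochaperone genes the median was -0.01 and 0 of 18 were called, with 1 at an unadjusted p under 0.05. Hsf itself had 116.9, 115.5 and 122.9 CPM in the mutant, against 116.4, 121.0 and 135.3 CPM in wild-type (log2 fold change -0.07, SE 0.11), and the Hsp90 and Hsp70 cochaperones p23 and Droj2 had -0.06 and -0.12.

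Other stress lists held few calls. Of 16 endoplasmic reticulum stress genes 1 rose and 0 fell, with a median of -0.14. The gene that rose was Edem1, which acts in the degradation of misfolded glycoproteins, with 77.4, 71.8 and 75.3 CPM in the mutant, against 48.2, 41.0 and 50.4 CPM in wild-type (log2 fold change 0.68, adjusted p = 0.0116, edgeR). In this list 11 genes were negative and 5 positive. Among the latter crc, picked out after its values were seen, had 1658.6, 1605.4 and 1741.0 CPM in the mutant, against 1304.0, 1143.1 and 1118.9 CPM in wild-type. Its log2 fold change of 0.49 (adjusted p = 0.0551, edgeR) was under the fold threshold. Of 18 oxidative stress genes 2 fell and 0 rose, with a median of -0.09. These were the glutathione transferase GstD1 (-0.64, adjusted p = 0.0313, edgeR) and the peroxiredoxin Prx2540-2 (-1.65, adjusted p = 0.0186, edgeR). Prx2540-2 had only 27, 23 and 30 counts in the mutant, against 88, 37 and 83 counts in wild-type. Prx2540-1, of the same list, went the other way (0.23, adjusted p = 0.685, edgeR). The handling of multi-mapping reads is not given, and its part in these values was not tested. Of 22 ecdysone response genes 1, ImpL1, rose (1.68, adjusted p = 0.0635, edgeR), with a median of -0.08. In this list DESeq2 called 1 gene higher and 1 lower. An unadjusted p under 0.05 in edgeR was given by 4 of the 22 genes, and by 2005 of the 10841 genes tested. Of 14 JNK and Foxo target genes the cell death gene rpr rose (0.64, adjusted p = 0.0173, edgeR), with a median of -0.08. Over all genes edgeR called 2.23% lower and 4.32% higher, so that a single edgeR call in lists of 14 to 22 genes was near the background. The 2 of 18 oxidative stress genes that fell were a larger share than that of all genes, and this difference was not tested.

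**Figure D5:**
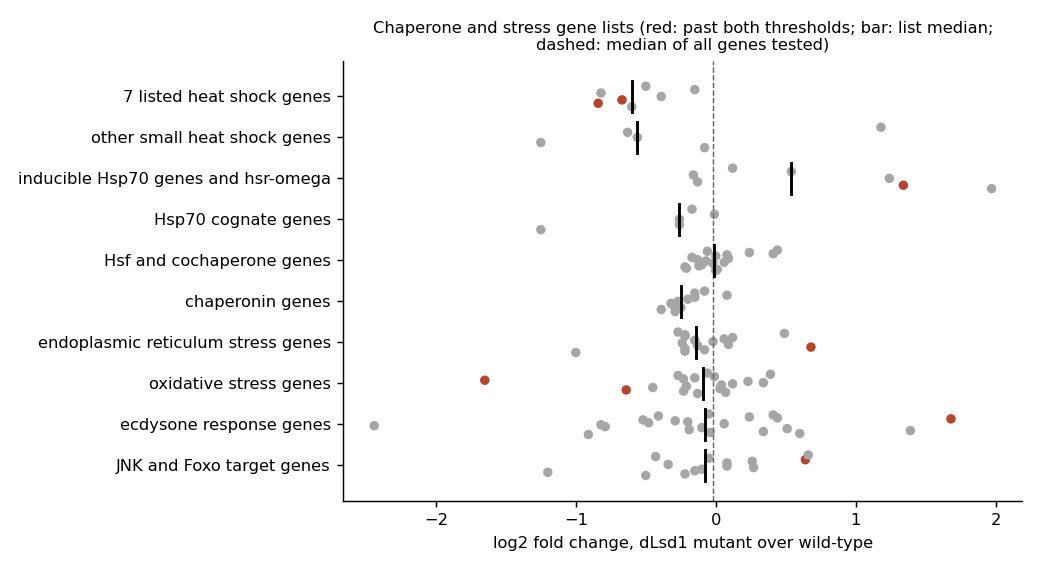
Log2 fold change of dLsd1 mutant over wild-type (x axis) for each tested gene of 10 chaperone and stress lists (rows), with red points for genes past both thresholds, black bars for list medians and a dashed line for the median of all genes (-0.02). The median of the 7 heat shock genes is -0.60, whereas that of the inducible Hsp70 genes and Hsromega is 0.54 and those of the 6 lists of 11 or more genes lie between -0.25 and -0.01.

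The called genes Hsp23 and Hsp26 have 884 and 1010 bases of exon, and fold changes varied with exon length across all genes. Among genes with a mean of at least 10 CPM, the median log2 fold change was -0.14 for the 783 with exons of up to 1 kb. It was -0.14 for the 2007 of 1 to 2 kb, -0.04 for the 2188 of 2 to 4 kb and 0.10 for the 1530 over 4 kb. With the trend of each library with exon length removed, an alternative added after seeing the data, the log2 fold changes were -0.82 for Hsp23 (adjusted p = 0.0372, edgeR) and -0.62 for Hsp26 (adjusted p = 0.0258), and both were still called.

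The library-to-library pattern of the 5 small heat shock genes of the list was compared with that of 7473 genes with at least 100 normalised counts on average. The pattern was the mean of the standardised log2 values of Hsp22, Hsp23, Hsp26, Hsp27 and Hsp67Bc in the 6 libraries. The genes most like it by Pearson correlation over the 6 libraries, which share the genotype difference and the depth, were CR43080 (r = 0.992), Cpr12A (0.991), CG15756 (0.99), Grip (0.988) and Vajk4 (0.987). The correlations are a description, and 143 of the genes (1.91%) had an r of at least 0.9. Cpr12A, a cuticle protein gene, had 61.4, 44.6 and 43.3 CPM in the mutant, against 90.1, 69.0 and 84.9 CPM in wild-type, with no overlap (log2 fold change -0.71, adjusted p = 0.0502, edgeR). CG15756 (-0.90, adjusted p = 0.0983) and Vajk4 (-2.23, adjusted p = 0.0318) were also called lower by edgeR, whereas CR43080 (-0.33) and Grip (-0.49) were not past the fold threshold.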

How the data were processed

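RNA from wing discs of 3 dLsd1 mutant and 3 wild-type samples, as GEO's labels group them, was sequenced as stranded paired-end libraries on 1 lane. Per the labels' processing notes, the authors trimmed reads with Trimmomatic 0.36 and aligned them to dm6 with STAR 2.5.2a. Picard served to remove duplicates, but whether before these counts were made is not given in the sources used here. Deposited were raw counts in whole numbers, in the format of TEToolkit, for 17471 genes and 171 transposable element families. The annotation release, the strand setting and the handling of multi-mapping reads are not given in the sources used here. Positions came from the BDGP6 annotation, release 115, by FlyBase identifier (17249 genes matched).

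Features with at least 10 counts over the 6 libraries (10841 genes and 150 element families) entered 1 fit in edgeR 4.0.16 under R 4.3.3 (TMM, robust quasi-likelihood F-test), with Benjamini-Hochberg adjustment over all of them. Levels are TMM-scaled CPM, and standard errors are the log2 fold change over the root of F. Library totals were 13960866 to 45909324 counts, and genes with few counts are the least precise. Tables and figures were made with pandas 2.3.3 and matplotlib 3.10.9. The fit was tested on simulated counts. These had no pairing of samples and no library that stood apart, so the test does not cover either.

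The heat shock genes and lists were chosen with earlier results of these data known. From each list other than the marker lists every gene past both thresholds was named and, with none, up to 2 of the highest level. The annotated genes of the 67B cluster and the 5 genes of most similar pattern were named besides. For the marker lists the calls were counted and only some genes were named. The genes stv and crc were named after their values were seen. The lists were other small heat shock genes, inducible Hsp70 genes, Hsp70 cognates, Hsf and cochaperones, chaperonins, endoplasmic reticulum stress, oxidative stress, ecdysone response, JNK and Foxo targets, and markers of wing disc (0 of 10 called), fat body, haemocytes, muscle, trachea, salivary gland (0 of 6 called) and gut. Of their names 6 were not matched.

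Same-numbered mutant and wild-type libraries deviated together from their genotype means, with correlations of 0.36, 0.20 and 0.44 across 8178 features. Of the differently numbered pairs, mutant replicate 1 and wild-type replicate 2 had 0.29 and the others -0.43 to -0.07. As every same-numbered pair was over 0.1, the replicate numbers in the sample titles were taken to pair the samples, although the 0.29 is above the 0.20 of a same-numbered pair. The main fit had genotype only and did not use this pairing. Alternatives were DESeq2 1.42.0, 2 other scalings, other filters, non-robust dispersions, genes only, an adjusted p below 0.05, a fit with a replicate block, and the omission of each library in turn.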

Additional observations from a re-analysis of the deposited data

How the results depend on the processing

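Hsp23 and Hsp26 were the genes called in the main test, with DESeq2, with upper-quartile or library-size scaling, with genes only, with no filter or filterByExpr, without robust dispersions, at an adjusted p below 0.05 and with the length trend removed. With the replicate block for the paired samples, which the main test lacks, 759 genes and the same 2 heat shock genes were called. The block changed no call among the 7. With it the adjusted p in edgeR was 0.0126 for Hsp23, 0.0168 for Hsp26 and 0.04 for Hsp83, the last at a log2 fold change of -0.50. Leaving out each library in turn gave 0 to 3 heat shock genes called, 0 without mutant replicate 2, mutant replicate 3 or wild-type replicate 1, and 373 to 1588 genes in all. Fewer samples enter each of these fits, and the cause of the lost calls was not tested. The log2 fold change ranged over these fits from -1.07 to -0.74 for Hsp23, -0.82 to -0.54 for Hsp26, -0.63 to -0.39 for Hsp83 and -0.36 to 0.04 for Hsp68, the last being its value without wild-type replicate 2. It ranged from -0.79 to -0.51 for Hsp22, -0.55 to -0.27 for Hsp27 and -1.06 to -0.60 for Hsp67Bc, all without a call. Over all 16 alternatives the adjusted p ran from 0.00233 to 0.191 for Hsp23 and from 0.00551 to 0.195 for Hsp26 (edgeR or DESeq2). For the summed Hsp70 copies it ran from 0.00256 to 0.234 over 14 alternatives, without the removal of the length trend and the threshold of 0.05, which the main adjusted p of 0.0602 does not pass. Hsp22, Hsp67Bc and the single Hsp70 copies had few counts, which limits what can be seen in them.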
